A study of Mus musculus with 6 samples.

Results

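The 10 genes described here come from families that make, cut, bind or cross-link hyaluronan, and their RNA was counted in the mouse thoracic aorta. They are the hyaluronan synthases Has1, Has2 and Has3, the hyaluronidases Hyal1 and Hyal2, the receptor Cd44, the transfer enzyme Tnfaip6 and the inter-alpha-trypsin inhibitor heavy chains Itih3, Itih4 and Itih5, out of 52636 genes in the count table. They were chosen by gene family and found by Ensembl identifier, with their KO against WT values already known. Their fold changes and p-values are therefore a description of these libraries and support nothing about the family as a group.

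Bulk RNA sequencing was performed on whole thoracic aortas of 12-week-old male mice. The 2 Tgfbr1/2iSMCKO (KO) mice, labelled C57BL/6J but a compound line crossed onto that background over several generations, carried loxP-flanked Tgfbr1 and Tgfbr2 together with the mT/mG reporter and Myh11-CreERT2. They received tamoxifen when 11 weeks old, as 5 daily injections of 2 mg. The 4 WT mice were C57BL/6J without these alleles and without tamoxifen, so that Cre, reporter, drug, any remaining difference in background and receptor loss cannot be told apart. The Myh11-CreERT2 construct is a Y-linked bacterial artificial chromosome that drives Cre in smooth muscle cells (SMCs), so that other cells of the vessel wall are not targeted. Column headers of the deposited table are codes, and each code was assigned to a labelled mouse (WT-1 to WT-4, KO-1, KO-2) by inference from the number of columns per code and the replicate number.

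The counts of the targeted genes do not check these labels. Tgfbr1 had 3858, 3999, 4763 and 5420 normalised counts in the libraries labelled WT and 5780 and 4568 in those labelled KO (DESeq2 adjusted p-value 0.63). Tgfbr2 had 5327, 5643, 6948 and 7042 in WT and 5784 and 5937 in KO (DESeq2 adjusted p-value 0.838). Neither gene was lower in KO than in all WT libraries. A whole-gene count does not separate deleted from intact exons. WT and KO below stand for the libraries labelled so.

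Hyaluronan is a long unbranched sugar polymer that synthases spin out through the plasma membrane from UDP-sugars, and that holds water in the matrix of vessels. Hyaluronidases cut it, Cd44 anchors it to cells, and aggregating proteoglycans such as versican bind it. Heavy chains of the inter-alpha-trypsin inhibitor family, best known as liver products in blood, can be moved by Tnfaip6 from a chondroitin sulfate chain on bikunin (encoded by Ambp) to hyaluronan, which makes a stiffer, cross-linked coat.

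The 3 members Itih4, Itih5 and Cd44 were higher in KO by the adjusted p-value of a DESeq2 fit over all genes, and 0 were lower. At an unadjusted p-value under 0.05, 3 were higher and 1, Itih3, was lower, in DESeq2 and in edgeR, and in edgeR 2 passed the adjusted p-value as higher and 0 as lower. Fold changes of KO over WT are given as log2 values ± standard error (SE). Itih4 and Itih5 also passed the study's 2-fold threshold, and Cd44 did not. Among all genes, 5.64% of the 17070 with an adjusted p-value passed both thresholds in either direction. Of the same 17070 genes, 3.54% passed both as higher in KO, and 10.4% passed the adjusted p-value at any fold change. No share of all genes was counted at the unadjusted p-value, so the member counts at that threshold have no background beside them. All 10 members had an adjusted p-value. The median log2 fold change of the members was 0.10, beside 0.01 for all genes tested.

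The starts of the 3 genes that were higher, and of Itih3, which lies next to Itih4 and did not pass, are shown as the sequence from 250 bases before to 50 bases after the RefSeq start site (build GRCm38.p6). They are Itih4 at chr14:30886226-30886525 (plus strand), Itih5 at chr2:10153293-10153592 (plus strand), Cd44 at chr2:102901616-102901915 (minus strand) and Itih3 at chr14:30923538-30923837 (minus strand). Each is printed 5′ to 3′ along its gene. Capitals mark matches, on either strand, to the Smad box CAGAC, the AP-1 site TGANTCA, the STAT site TTCNNNGAA or the E-box CACGTG.
Itih4: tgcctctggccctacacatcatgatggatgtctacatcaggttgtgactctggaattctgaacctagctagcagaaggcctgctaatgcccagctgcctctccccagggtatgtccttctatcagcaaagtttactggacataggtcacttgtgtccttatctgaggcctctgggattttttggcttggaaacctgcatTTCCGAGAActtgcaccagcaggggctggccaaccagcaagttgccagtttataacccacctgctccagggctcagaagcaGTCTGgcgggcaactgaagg
Itih5: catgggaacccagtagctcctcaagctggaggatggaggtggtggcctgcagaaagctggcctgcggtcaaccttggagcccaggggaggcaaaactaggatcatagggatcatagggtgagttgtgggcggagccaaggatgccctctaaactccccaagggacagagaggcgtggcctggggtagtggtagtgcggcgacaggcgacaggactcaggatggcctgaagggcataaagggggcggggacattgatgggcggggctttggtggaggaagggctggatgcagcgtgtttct
Cd44: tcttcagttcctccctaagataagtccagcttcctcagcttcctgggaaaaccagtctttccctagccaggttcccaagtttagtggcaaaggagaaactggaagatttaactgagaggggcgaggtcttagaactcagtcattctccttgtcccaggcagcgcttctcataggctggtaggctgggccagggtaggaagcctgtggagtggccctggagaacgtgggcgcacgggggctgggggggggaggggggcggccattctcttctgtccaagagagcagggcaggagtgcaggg
Itih3: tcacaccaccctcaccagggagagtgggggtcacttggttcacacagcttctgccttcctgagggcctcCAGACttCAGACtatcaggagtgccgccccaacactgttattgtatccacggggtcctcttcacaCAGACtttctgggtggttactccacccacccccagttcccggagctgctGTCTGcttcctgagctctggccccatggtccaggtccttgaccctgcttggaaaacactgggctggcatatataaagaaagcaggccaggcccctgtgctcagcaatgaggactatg

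The 4 windows differed in these letters. Itih4 held 1 STAT match that began at position -51 from the start site and 1 Smad box match at +31. Itih3 held 4 Smad box matches, at -181, -174, -116 and -67. Itih5 and Cd44 held no match to any of the 4 motifs. No match overlapped a match to another motif. Of all 32851 RefSeq promoter windows of this length, 49.6% held the Smad box, 7.81% the AP-1 site, 8.3% the STAT site and 7.15% the E-box. Base composition also differed, with 52.3% G and C in Itih4, 60.7% in Itih5, 58% in Cd44 and 57% in Itih3, beside a median of 52.7% over all windows. Windows were found for 8 of the 10 members, the others being Has2 and Has3.

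Itih4 was the most abundant member in either group and the one that changed most. Its protein is a heavy chain family member that is known as an acute-phase plasma protein of liver origin and that does not carry bikunin. The transfer from bikunin to hyaluronan described above therefore does not cover Itih4. Normalised counts of Itih4 (ENSMUSG00000021922.16, chromosome 14, 30886476 to 30902353) were 6819, 6725, 6795 and 6867 in the WT libraries in order of number, and 27724 and 22265 in KO-1 and KO-2. Both KO libraries lay far above the WT range. The WT mean was 6802 ± 59.1 (SD, n = 4) and the KO mean 24995 ± 3860 (SD, n = 2). Itih4 thus rose by 1.88 ± 0.16 (log2, SE; DESeq2, adjusted p-value 1.24e-29). The size of this p-value depended on the method, since the adjusted p-value in edgeR was 0.00111 with its filter and 0.000278 without. The WT coefficient of variation was 0.869%, beside the 1.22% that counting error alone gives at this depth. By normalised count per kb of exon, 475 genes exceeded Itih4 in WT and 88 did so in KO.

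Itih5, a heavy chain relative that is made in many tissues outside the liver, also rose, from a far lower level. Normalised counts of Itih5 (chromosome 2, 10153571 to 10256529) were 351.5, 371.8, 440.4 and 469.9 in the WT libraries and 764.9 and 897.3 in KO-1 and KO-2. The groups did not overlap. Itih5 rose by 1.02 ± 0.21 (log2, SE; DESeq2, adjusted p-value 8.27e-05), close to the 2-fold threshold. The value was 0.96 without WT-1, 0.98 without WT-2 and 0.92 without KO-2, with adjusted p-values of Itih5 under the threshold in each of the 12 alternative fits.

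Itih3 encodes a heavy chain of the classical plasma complex. Its normalised counts (chromosome 14, 30908572 to 30923760) were 295.5, 307.1, 259.6 and 231.8 in the WT libraries and 206.4 and 157.3 in KO-1 and KO-2. Both KO libraries lay below all WT libraries, yet the log2 value of -0.58 ± 0.26 (SE) did not pass (DESeq2, adjusted p-value 0.145). In 4 of the 10 members both KO libraries lay outside the WT range, namely Itih4, Itih5, Cd44 and Itih3. The same held for 34.3% of all tested genes.

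**Figure D1:**
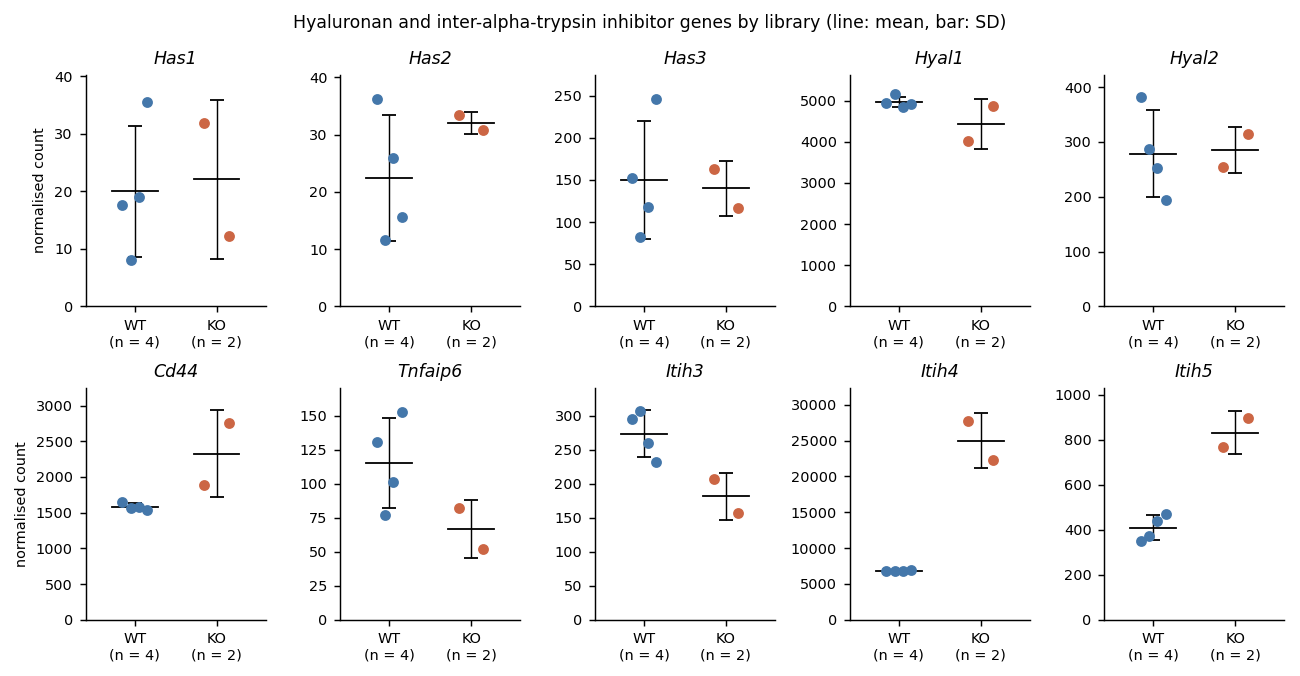
Normalised count (y axis, linear from 0) of each of the 10 members in the 4 WT (blue) and 2 KO (orange) libraries, with the mean as a line and the SD as a bar. Itih4, Itih5 and Cd44 lie above the WT range in both KO libraries and Itih3 below it, while the groups overlap in the other 6.

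Of the heavy chain genes with counts, Itih4 and Itih3 are neighbours, as are Itih5 and Itih2. In each of these 2 pairs the fitted fold changes had opposite signs, though that of Itih3 did not pass the adjusted p-value. On chromosome 14, Itih4 and Itih3 point toward each other with 6.22 kb between them, and Itih1, which follows Itih3 after 5.42 kb, had 0 counts in every library. Counted per kb of exon, Itih4 transcripts were 21.6 to 29.2 times as abundant as those of Itih3 in the WT libraries, and 132 and 140 times in KO-1 and KO-2. On chromosome 2, Itih5 and Itih2 point away from each other with 22.2 kb between them. Itih2, a further classical heavy chain gene, fell, with 1639 to 2179 normalised counts in WT and 1160 and 1331 in KO-1 and KO-2 (-0.59 ± 0.19, log2 and SE; DESeq2, adjusted p-value 0.0205), though it did not pass in edgeR. Within 200 kb of the start of Itih4, 0 of the 10 other protein-coding genes with an adjusted p-value passed it in DESeq2 or in edgeR, and 4 of them had an unadjusted DESeq2 p-value under 0.05. The nearest to the threshold were Tmem110 (log2 fold change -0.51, adjusted p-value in DESeq2 0.084) and Nek4 (log2 fold change 0.75, adjusted p-value in DESeq2 0.0843). Around Itih5, Itih2 passed and the other 3 genes did not.

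**Figure D2:**
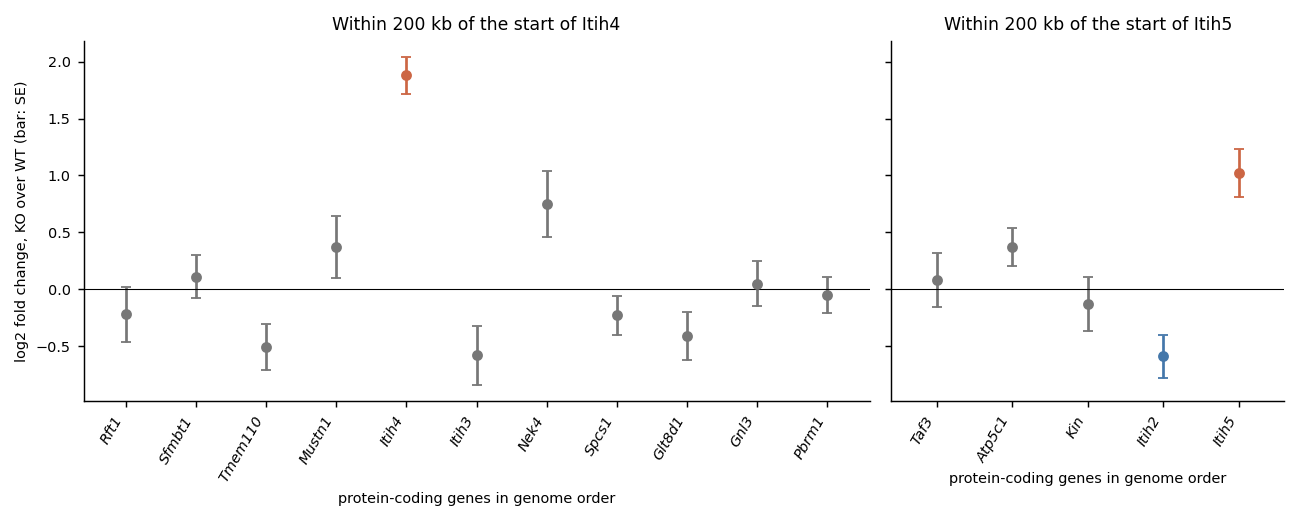
Log2 fold change, KO over WT, with its standard error (y axis) for protein-coding genes that lie within 200 kb of the start of Itih4 (left) and Itih5 (right), in genome order (x axis). Orange and blue mark higher and lower genes that pass the DESeq2 adjusted p-value. Itih4 at 1.88 and Itih5 at 1.02 stand above their neighbours, and Itih2 at -0.59 is the blue point.

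The make-up of the heavy chain transcripts moved with these values. The heavy chain sum was taken over Itih1 to Itih5. Per kb of exon, Itih4 made up 72.7% ± 1.97 (SD, n = 4) of this sum in WT and 92.6% ± 1.55 (SD, n = 2) in KO. Itih2 took 22.3% ± 2.11 in WT and 5.23% ± 1.22 in KO. Itih3 took 2.97% ± 0.439 and 0.682% ± 0.0365. Itih5, though higher in count, took 2.03% ± 0.234 in WT and 1.47% ± 0.364 in KO. The shares of Itih2, Itih3 and Itih5 were each lower in both KO libraries than in any WT library. A larger share of Itih4 lowers the sum of the other shares whatever their own counts do. The sum itself was 2536 ± 72.2 normalised counts per kb in WT and 7305 ± 1007 in KO. Ambp, which encodes bikunin, had 0 counts in each of the 6 libraries, as did Itih1. A count of 0 allows up to 3 counts per library, where Itih4 had at least 6208 unscaled counts.

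**Figure D3:**
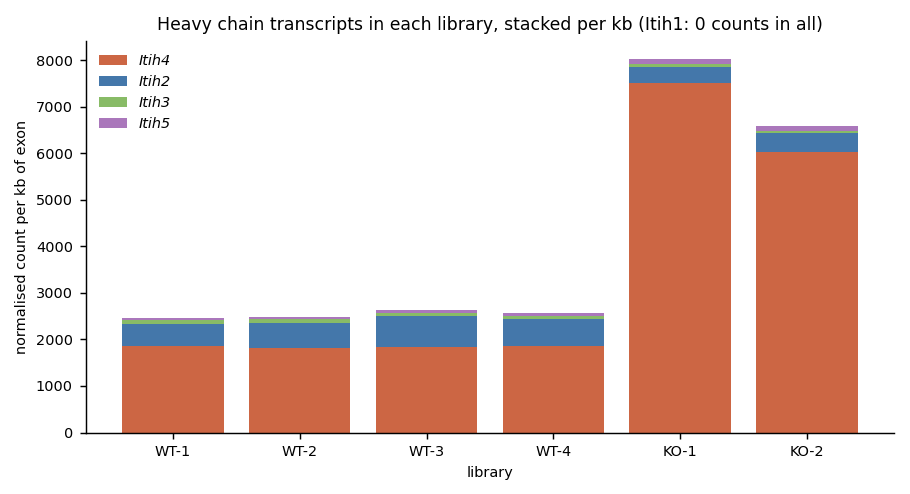
Normalised counts per kb of exon (y axis) of Itih4, Itih2, Itih3 and Itih5, stacked for each library (x axis). WT columns reach 2468 to 2626 and KO columns 8017 and 6592, and Itih4 is the tallest segment in each.

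Among liver markers, Alb, Apoa1, Ttr, Serpina1a and Fgb had 0 counts in all WT libraries. Ttr, Serpina1a and Fgb were at 0 in KO as well, whereas Alb had 41.7 and 279 normalised counts in KO-1 and KO-2, and Apoa1 had 0 and 8.6. Ahsg, also a liver gene, rose from a WT range of 141 to 232.8 to 773.2 and 767. Of the 6 liver markers, 2 had an adjusted p-value in DESeq2, and both passed it as higher (Alb 0.0108, Ahsg 2.69e-12). The part of these in the Itih4 result was not tested.

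Cd44, the main cell surface receptor for hyaluronan, was moderately higher in KO. Normalised counts of Cd44 (chromosome 2, 102811141 to 102901665) were 1652, 1563, 1574 and 1534 in the WT libraries, 1894 in KO-1 and 2759 in KO-2. The groups did not overlap, but KO-1 stood near the WT range and KO-2 well above it. The difference was 0.56 ± 0.20 (log2, SE; DESeq2, adjusted p-value 0.0438). The adjusted p-value passed in 4 of 12 alternative fits and ranged from 1.38e-05 to 0.503. It missed the threshold in edgeR and without any single WT library (DESeq2, 0.0767 to 0.128). Without KO-2 the log2 value was 0.27 and without KO-1 it was 0.81.

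Macrophage markers moved in the same libraries as Cd44, which leukocytes also carry. Their summed normalised count was 8355 to 10152 in WT, 14372 in KO-1 and 16588 in KO-2. Of the 8 macrophage markers, 7 passed the DESeq2 adjusted p-value as higher, and 4 of these passed the 2-fold threshold. In edgeR 4 of the 8 passed the adjusted p-value as higher. Lymphocyte markers summed to 20.9 to 68.1 in WT, 88.8 in KO-1 and 329.4 in KO-2, and 0 of 7 passed the adjusted p-value in DESeq2 or edgeR, with 2 higher at an unadjusted DESeq2 p-value under 0.05. The part of leukocytes in the Cd44 result was not tested, and in bulk tissue a change in cell number and one in RNA per cell cannot be told apart.

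The synthases were at the bottom of the range, and no difference in them was larger than the spread between libraries. The WT coefficient of variation was 56.9% for Has1, 49.3% for Has2 and 47% for Has3, where counting error alone gives 22.6%, 21.4% and 8.27%. Has1 (chromosome 17, 17843323 to 17855205) had 17.6, 8.08, 19 and 35.5 normalised counts in WT and 31.9 and 12.3 in KO-1 and KO-2. Has2 (chromosome 15, 56665627 to 56694539), the synthase that embryonic heart development needs, had 36.2, 11.7, 26 and 15.7 in WT and 33.4 and 30.7 in KO. Has3 (chromosome 8, 106870242 to 106884566) had 152.7, 82.6, 117.8 and 246.4 in WT and 163.1 and 116.8 in KO. For each of the 3 genes the groups overlapped. The 95% intervals of the DESeq2 log2 fold changes ran from -1.37 to 1.69 for Has1, from -0.76 to 1.81 for Has2 and from -0.92 to 0.73 for Has3, so that a change of 2-fold lies inside those of Has1 and Has2 in at least 1 direction.

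Has3 made up most of the synthase transcripts in every library. Its share per kb of exon was 70.2% ± 6.24 in WT (SD, n = 4) and 63.9% ± 1.13 in KO (SD, n = 2). Those of Has2 were 17% ± 7.19 and 22.6% ± 4.38, and those of Has1 were 12.8% ± 2.73 and 13.5% ± 5.51. The WT libraries differed among themselves by more than the group means did. Their summed synthase level ran from 17.5 in WT-2 to 50.2 normalised counts per kb in WT-4, a range that holds both KO libraries at 40.5 and 28.3. Across the 6 libraries the log2 values of Has1 and Has3 had a Pearson correlation of 0.91, while those of Has1 and Has2 had one of 0.28. Has2 and Has3 share 4.3% and 5.52% of their exon bases with genes on the opposite strand, Has2os and Chtf8, and whether the counting used strand is not stated.

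Of the hyaluronidases, Hyal1, a lysosomal enzyme, far exceeded Hyal2, an enzyme anchored at the cell surface. Hyal1 (chromosome 9, 107576927 to 107581710) had 4941, 5152, 4850 and 4929 normalised counts in WT and 4012 and 4859 in KO-1 and KO-2. KO-1 lay below all WT libraries and KO-2 within their range. The log2 fold change of Hyal1 was -0.16 (95% interval -0.47 to 0.14, DESeq2 adjusted p-value 0.603). Hyal2, which ends 4.15 kb before Hyal1 begins, had 382.2, 287.4, 251.6 and 194.2 in WT and 255 and 314.7 in KO, with a log2 fold change of 0.03 (95% interval -0.56 to 0.62, DESeq2 adjusted p-value 0.971). Both intervals exclude a 2-fold change. The count of Hyal1 is uncertain, since 50.8% of its exon bases are shared with Naa80 on the same strand, which had 2151 ± 344.6 normalised counts in WT (SD, n = 4) and 2172 ± 791.1 in KO (SD, n = 2).

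Tnfaip6, the secreted enzyme that moves heavy chains onto hyaluronan, had a fitted fold change below 0 that did not pass the test. Its normalised counts (chromosome 2, 52038009 to 52056686) were 130.7, 77.2, 100.9 and 152.4 in WT and 82 and 51.6 in KO-1 and KO-2. KO-2 lay below all WT libraries, and KO-1 within their range. The log2 value was -0.78 ± 0.40 (SE), its 95% interval ran from -1.56 to 0.01, and the adjusted p-value in DESeq2 was 0.236.

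**Figure D4:**
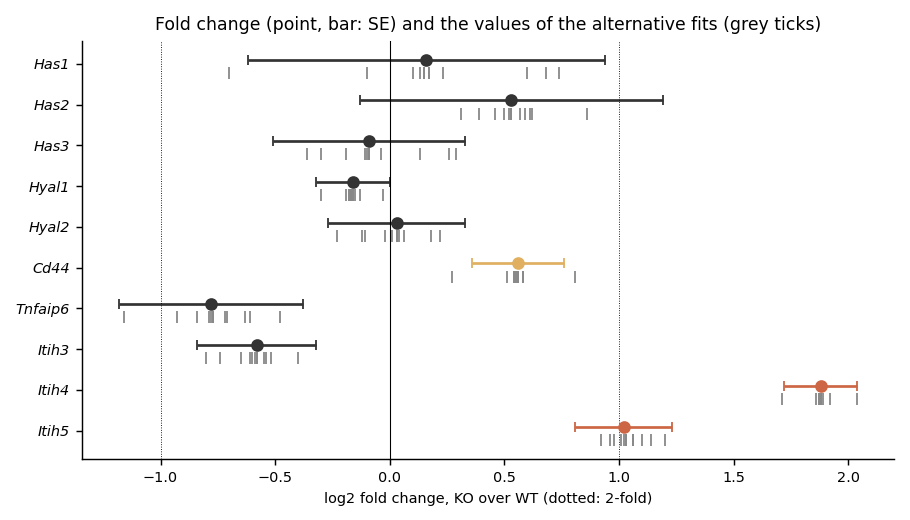
Log2 fold change, KO over WT (x axis), of each member (y axis) as a point with its standard error (orange past both thresholds, yellow past the adjusted p-value alone, black past neither), and the values of the 12 alternative fits as grey ticks under it. Dotted lines mark 2-fold. Itih4 stays between 1.71 and 2.04, Itih5 crosses the 2-fold line at 0.92 to 1.20, and ticks of Has1, Has3 and Hyal2 lie on both sides of 0.

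Levels between genes were compared as normalised counts per kb of exon. In WT the order was Itih4 (1843 ± 16, SD, n = 4), Hyal1 (1315 ± 34.2), Cd44 (233 ± 7.44), Hyal2 (84.7 ± 24), Itih3 (75.2 ± 9.45), Tnfaip6 (67.4 ± 19.3), Itih5 (51.7 ± 7.08), Has3 (23.5 ± 11), Has2 (5.28 ± 2.6) and Has1 (4.43 ± 2.52). Neighbours from Hyal2 to Itih5 overlapped within 1 SD, as did Has2 and Has1. With the length of the longest transcript in place of all exons, the level of Has1 was 5.66 and that of Has2 was 5.28, so that these 2 changed places. In KO the levels per kb were 6774 ± 1046 (SD, n = 2) for Itih4, 1174 ± 158 for Hyal1 and 343 ± 90.3 for Cd44. Itih5 at 105 ± 11.9 and Hyal2 at 86.5 ± 12.8 came next and overlapped within 1 SD.

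Other genes of the pathway were taken from lists on precursor supply, degradation, receptors, and cross-linking and binding. Of these 36 genes, 28 had an adjusted p-value in DESeq2: 1 passed as higher, 3 passed as lower and 24 did not pass. Their median log2 fold change, over the 26 genes whose normalised counts averaged 10 or more, was 0.01. It was also 0.01 over all genes tested, to which this limit was not applied. The lists differed, with medians over such genes of -0.17 for degradation, 0.51 for receptors and -0.85 for cross-linking and binding. The 9 precursor genes, which supply UDP-glucuronate and UDP-N-acetylglucosamine, centred on a log2 value of 0.21 (median), and 0 passed the adjusted p-value in DESeq2 or edgeR. At an unadjusted p-value under 0.05, 1 of them (Gfpt2) was higher. Gfpt2, a rate-setting enzyme of the hexosamine pathway, had 554.1 to 1055 normalised counts in WT and 1248 and 1147 in KO, with a DESeq2 adjusted p-value of 0.101.

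Among the 7 other receptors, Lyve1, a hyaluronan receptor of lymphatic endothelium and of some resident macrophages, rose. It had 689.7 to 865.6 normalised counts in WT and 1471 and 1873 in KO (1.15 ± 0.20, log2 and SE; DESeq2, adjusted p-value 3.98e-07). Endothelial markers summed to 10883 to 20370 in WT and to 29770 and 28676 in KO, and 3 of 6 passed the adjusted p-value as higher in DESeq2 and in edgeR. Summed macrophage markers, given above, were also higher in both KO libraries than in any WT library. The part of either cell type in the Lyve1 value was not tested. Of the 5 other degradation genes with an adjusted p-value, 0 passed in DESeq2 or edgeR, and 0 had an unadjusted p-value under 0.05.

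The 3 lower genes were binding partners of hyaluronan or of the heavy chain family. Acan, which encodes the cartilage proteoglycan aggrecan, fell from a WT range of 1688 to 2254 to 350.6 and 360.1 (-2.39 ± 0.20, log2 and SE; DESeq2, adjusted p-value 1.13e-30). Vcan, which encodes versican, the main hyaluronan-binding proteoglycan of arteries, fell from 3633 to 5118 in WT to 2235 and 2308 (-0.92 ± 0.19, log2 and SE; DESeq2, adjusted p-value 4.34e-05). Itih2, given above, was the third. Hapln1, a link protein that ties such proteoglycans to hyaluronan, had a log2 fold change of -0.78 that did not pass (DESeq2, adjusted p-value 0.225).

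**Figure D5:**
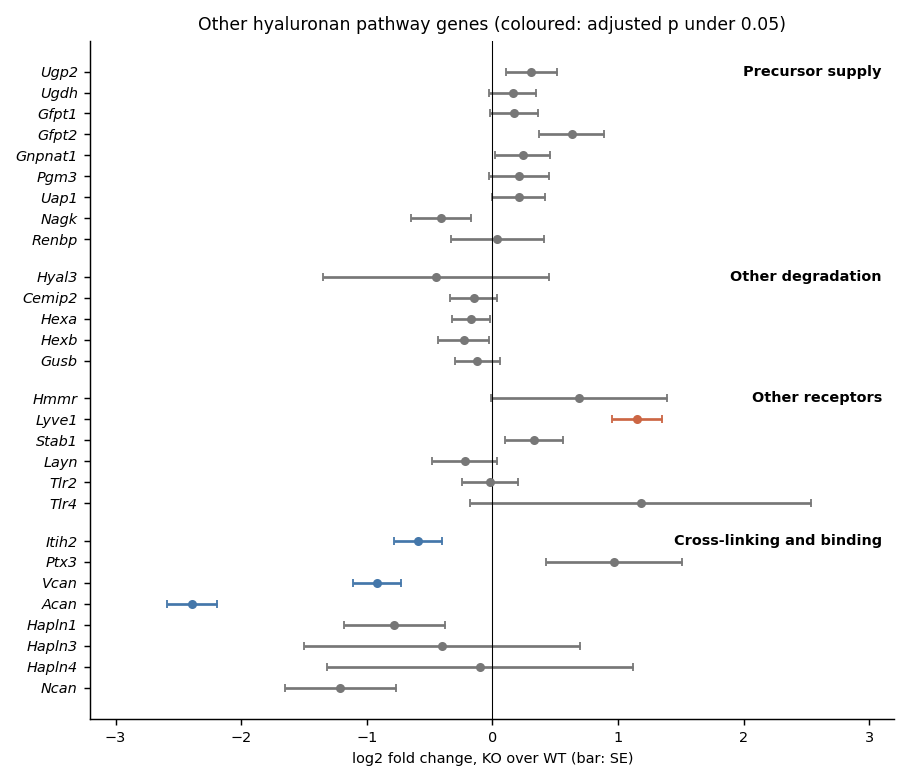
Log2 fold change, KO over WT, with its standard error (x axis) of the 28 other pathway genes with a DESeq2 adjusted p-value, by list (y axis). Lyve1 in orange is the gene that passes as higher, and Itih2, Vcan and Acan in blue pass as lower.

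Markers of other cell types moved between the libraries too. Smooth muscle markers summed to 883248 to 1042571 normalised counts in WT and to 838705 and 998245 in KO, and 0 of 8 passed the adjusted p-value in DESeq2 or edgeR, with 1 higher and 3 lower at an unadjusted DESeq2 p-value under 0.05. Fibroblast markers summed to 151363 to 166913 in WT and to 190201 and 187806 in KO, and 2 of 8 passed the adjusted p-value as higher in DESeq2 and 1 in edgeR. For mesothelial markers the sums were 706.8 to 963.7 in WT, 1619 in KO-1 and 3603 in KO-2. All 9 lay above every WT library in both KO libraries, 7 passed the adjusted p-value as higher in DESeq2, and 4 did so in edgeR with its filter and 5 without. White fat markers reached 39631 in KO-2 against 5662 in KO-1 and at most 5294 in WT, brown fat markers 13783 in KO-2 against 3867 in KO-1 and at most 1453 in WT, and red blood cell markers 61684 in KO-2 against 11076 in KO-1 and at most 5990 in WT. Cardiac markers reached 24059 in KO-1 against 2719 in KO-2 and at most 1630 in WT. Mitochondrial transcripts took 11.7% of the counts in KO-2 and 2.62% to 4.44% in the other libraries. Itih4 was higher in KO-1 than in KO-2, whereas Cd44 and Itih5 were higher in KO-2. The part of these cell types in the members' values was not tested.

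The genes whose pattern over the 6 libraries was most like a member's were taken by Pearson correlation of log2 values. For Itih4 they were led by Vegfd (0.998), Gm4864 (0.997) and Nck2 (0.996), for Itih5 by Casp8ap2 (0.999) and Nckap1l (0.996), and for Cd44 by Ifitm3 (0.997), Spi1 (0.996) and Prc1 (0.995). Any gene that separates the groups scores high in such a small set, and the libraries share depth and tissue make-up. Itih4 and Itih5 had a correlation of 0.94 with each other, and Itih4 and Itih3 one of -0.81.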

How the data were processed

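Reads had been trimmed with Trim Galore, mapped to GRCm38 with HISAT2 and quantified with StringTie on GENCODE M15 by the authors. The deposited table holds 1 estimated count for each gene and library, whole and unscaled. How coverage became whole numbers and whether strand was used are not given in the sources used here. Totals ran from 19650983 to 28860598 per library.

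DESeq2 1.42.0 in R 4.3.3 compared 2 KO with 4 WT libraries over the whole table (Wald test, group as the term, default size factors and filtering). Following the study's thresholds, a call needed more than a 2-fold change and a Benjamini-Hochberg adjusted p-value below 0.05. Fold changes were taken from the fit, and 95% intervals are 1.96 standard errors. Normalised counts are counts divided by size factors. Exon lengths, positions and symbols came from GENCODE M21 (GRCm38), in which 52489 of the 52636 identifiers of the count table were found. Scripts were tested on simulated data. Libraries of a group came from separate mice by the study's description. Floors cover counting error only. Exact permutation of 4 against 2, made two-sided by doubling the smaller tail, cannot go below 0.133 and was not used.

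The members, lists and marker genes, and the rule that names each member, each pathway gene past the adjusted p-value and genes of like pattern, were chosen with earlier results of these data known. Motifs, neighbours and heavy chain shares were added after the values were seen, as were the mentions of Gfpt2, Hapln1, Tmem110 and Nek4. Alternatives were edgeR 4.0.16 quasi-likelihood with and without a filter, TMM or total-count scaling, a filter of 10 counts in 2 libraries, the replicate number as a block, and leaving out each library.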

Additional observations from a re-analysis of the deposited data

How the results depend on the processing

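Of 120 member values over 12 alternative fits, 103 kept their direction and side of the adjusted p-value, 8 (all of Cd44) no longer passed and 9 changed sign, all of genes that did not pass in any fit. With a library left out, Has1 ran from -0.70 (without KO replicate 1) to 0.68 and was -0.10 without WT replicate 2. Has3 ran from -0.36 to 0.26, the latter without WT replicate 4, and was 0.13 without KO replicate 2. Hyal2 ran from -0.12 to 0.22, and was -0.02, -0.11 and -0.12 without WT replicate 3, WT replicate 4 and KO replicate 2. Itih4 passed both thresholds in all 12 and Itih5 in 9. Members past both thresholds numbered 1 to 2 with a library left out (1 without WT replicate 1, WT replicate 2 or KO replicate 2). Genes called numbered 633 with edgeR and its filter, against 962, and 636 to 1284 with a library left out, the lowest without KO replicate 2 and the highest without KO replicate 1. With the replicate number as a block, 561 genes and the same members Itih4 and Itih5 were called, Has3 was 0.29 and Hyal2 was -0.23. Deviations of same-numbered libraries from their group means had correlations of -0.099 and 0.00924. With 2 KO libraries the deviations of KO-1 and KO-2 mirror each other, so these values are not separate checks and cannot decide on pairing. The numbers were not taken as pairs. The spread between WT libraries, which exceeds counting error in Has1, Has2 and Has3, limits what can be seen in them.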

Other observations

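Tlr4, a receptor that hyaluronan fragments can engage, was singled out after its values were seen, since the WT libraries fell into separate levels. It had 50.5 and 49.1 normalised counts in WT-1 and WT-4, 728.3 and 825.9 in WT-2 and WT-3, and 1036 and 833.4 in KO-1 and KO-2. Its log2 value was 1.18 ± 1.36 (SE; DESeq2, adjusted p-value 0.684). What separates the WT libraries was not tested.

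Among the 13 cross-linking and binding genes, Ncan, which encodes a hyaluronan-binding proteoglycan best known from brain, had 70.3 to 100.9 normalised counts in WT and 24.3 and 50.4 in KO-1 and KO-2 (-1.21 ± 0.44, log2 and SE; DESeq2, adjusted p-value 0.0542). Ptx3, a secreted protein that helps to assemble heavy chains with hyaluronan, had 18 to 35 in WT and 39.5 and 68.8 in KO, with a DESeq2 adjusted p-value of 0.278. Both were named after their values were seen.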
